A study of Mus musculus with 6 samples.

Results

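The 8 interferon regulatory factor (IRF) genes Irf1, Irf2, Irf3, Irf4, Irf5, Irf7, Irf8 and Irf9 were taken by name from the gene expression table of MLL-AF9 leukemia cells, out of 26082 gene names. Each of the 8 genes stood on a single line of its own, and none of them lay in an entry joined with another gene. The values are FPKM, fragment numbers divided by transcript length and by library size, so levels of different genes can be set side by side. RNA-Seq was run on 6 samples of leukemia cells that had been isolated from bone marrow by a cell sorter, all of strain C57BL/6J, 3 after vehicle and 3 after DS-5272, an inhibitor of the p53-MDM2 interaction, at 80 mg/kg by mouth. Cells of both groups were collected 24 h after dosing and carried MLL-AF9, a fusion oncogene found in acute myeloid leukemia (AML) that was introduced into mouse bone marrow progenitors by a retrovirus. In this model the leukemia was passed serially between mice, and the recipients used for drug treatment kept their own blood and immune cells. The labels give neither the Trp53 genotype of the leukemia cells nor the age of the mice, and the gate of the RNA-Seq sort itself is not given in the sources used here, although the leukemia cells coexpressed GFP and were selected by it in other assays of the study. Nothing in the labels says that each sample came from a separate mouse, so p-values measure the spread between these samples only.

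IRFs are transcription factors that share an N-terminal DNA-binding domain recognizing GAAA-containing elements such as the interferon-stimulated response element (ISRE). IRF3, IRF5 and IRF7 lie latent in the cytoplasm until kinases downstream of nucleic acid sensors and Toll-like receptors phosphorylate them, after which they induce interferon and cytokine genes. IRF9 is the DNA-binding subunit of ISGF3, the complex that turns on interferon-stimulated genes, and IRF1 and IRF2 act on many of the same elements as activator and, mostly, repressor. IRF4 and IRF8 are restricted to blood and immune cells, bind DNA together with PU.1, and direct lymphoid and monocytic differentiation, respectively.

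The 8 genes lie on 6 chromosomes of the mouse genome (GENCODE annotation of GRCm38). Irf1 spans chromosome 11 from 53770014 to 53778374, Irf2 chromosome 8 from 46739732 to 46847458, and Irf8 lies on the same chromosome from 120736358 to 120756694. Irf3 (44997648 to 45002848) and Irf7 (141262706 to 141266481, minus strand) are both on chromosome 7. Irf4 spans chromosome 13 from 30749226 to 30766976, Irf5 chromosome 6 from 29526625 to 29541871, and Irf9 chromosome 14 from 55603571 to 55610030. The longest coding transcripts have 8 exons in Irf3, 9 in Irf2, Irf4, Irf5 and Irf8, and 10 in Irf1, Irf7 and Irf9.

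The members moved in one direction, so their promoters were searched on both strands for elements of this pathway. RefSeq promoter windows (GRCm38.p6) were matched for all 8 members, 11 windows in all, and the 250 bases upstream of each start were searched. The gamma-activated site GAS (TTCNNNGAA), an element of interferon-gamma-responsive genes, was present upstream of 3 members, against 7.02% of 32851 promoter windows of the same length. The ISRE core (GAAA, any 2 bases, GAAA) was present upstream of 1 member, against 2.98% of windows. The p53 response element half-site was present upstream of 0 members, against 7.13% of windows, a share at which 11 windows may well hold no match. The shares count windows, whereas each member was counted once although the 8 members have 11 windows. The windows of the 3 genes with a match are shown from 250 to 51 bases before the start, on the plus strand, with the matched letters in capitals. They lie at chr11:53769764-53769963 for Irf1, chr8:46739495-46739694 for Irf2 and chr8:120736108-120736307 for Irf8, and the first bases of the Irf2 window also belong to an exon of the divergent noncoding gene Gm16675.
Irf1: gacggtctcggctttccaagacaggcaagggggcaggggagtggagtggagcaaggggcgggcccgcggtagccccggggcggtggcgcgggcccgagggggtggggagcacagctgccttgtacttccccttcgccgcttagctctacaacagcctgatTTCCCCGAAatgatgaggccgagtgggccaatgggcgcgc
Irf2: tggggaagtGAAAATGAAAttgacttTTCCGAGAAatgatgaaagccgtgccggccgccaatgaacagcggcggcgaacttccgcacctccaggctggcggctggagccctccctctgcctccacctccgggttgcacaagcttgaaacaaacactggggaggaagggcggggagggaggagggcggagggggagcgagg
Irf8: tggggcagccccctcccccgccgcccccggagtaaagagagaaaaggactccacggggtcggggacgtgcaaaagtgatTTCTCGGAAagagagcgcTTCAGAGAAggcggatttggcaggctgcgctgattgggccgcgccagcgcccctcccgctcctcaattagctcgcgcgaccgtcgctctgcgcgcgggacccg
The site upstream of Irf1 reads TTCCCCGAA and begins 90 bases before the start. Irf2 has the ISRE core GAAAATGAAA, beginning at 241 bases, next to the GAS TTCCGAGAA, beginning at 224 bases. Irf8 has a pair of GAS matches, TTCTCGGAA and TTCAGAGAA, beginning at 171 and 153 bases. None of these matches overlapped another. They describe the letters of the sequence, and binding was not measured. The 3 genes with a match had log2 fold changes of 1.29, 0.95 and 1.24, and the genes with the largest changes, Irf7 and Irf5, had none of the 3 motifs in their windows.

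In vehicle-treated cells the IRF transcripts were led by Irf8. Its FPKM was 113, 95.9 and 74.0 in vehicle replicates 1, 2 and 3, above every other member in each of these samples. Irf7, Irf3, Irf1 and Irf9 followed with mean levels of 38.7, 29.6, 29.5 and 28.9 FPKM, and the ranges of each neighbouring pair among these overlapped. Irf2 (23.8 FPKM), Irf5 (18.0 FPKM) and Irf4 (0.243 FPKM) came next in this order in all vehicle samples, and the ranges of these neighbours were separate.

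The order of the genes was different in DS-5272-treated cells. Irf8 (222 FPKM) and Irf7 (205 FPKM) stood at the top with overlapping ranges, and Irf7 exceeded Irf8 in DS-5272 replicate 1. Irf5, which was below all members but Irf4 in each vehicle sample, was below 2 or 3 members in each DS-5272 sample, with a mean of 81.4 FPKM. Irf3 moved down to the place just above Irf4 in all 3 treated samples. The ranges were separate between Irf7 and Irf5 and between Irf3 and Irf4, while all other neighbours overlapped.

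**Figure D1:**
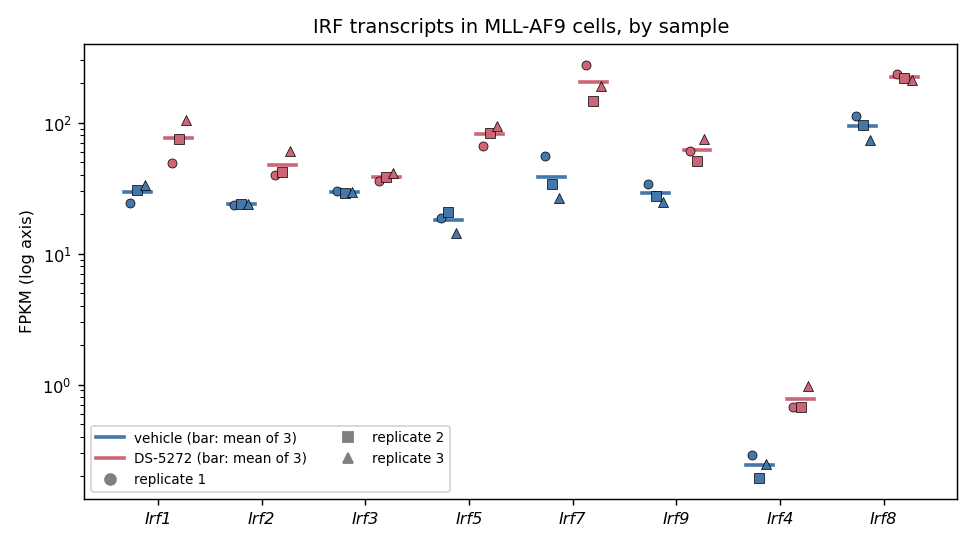
FPKM of the 8 IRF genes (log axis) in each of the 6 samples; points are samples, with the shape giving the replicate number, and bars are means of 3. The treated points lie above the vehicle points for every gene, with the widest gaps for Irf7 and Irf5 and a narrow one for Irf3.

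All 7 members that could be tested rose with DS-5272, and none fell (limma, adjusted p below 0.05). Among all 11130 tested genes, 24.2% rose and 22.0% fell. The log2 fold changes, on the log2(FPKM + 1) scale, ran from 0.37 for Irf3 to 2.39 for Irf7 with a median of 1.24, whereas the median of all tested genes was 0.04 and their upper quartile 0.46. At least 1 on this scale was reached by 5 members, Irf7, Irf5, Irf1, Irf8 and Irf9, while 8.79% of all tested genes passed the test with a rise of that size. The lowest treated sample exceeded the highest vehicle sample in 8 of 8 members, a pattern that 32.1% of tested genes showed. The summed FPKM of the 8 genes was 300.3, 262 and 227 in the vehicle samples and 767, 658 and 777 in the treated samples, a ratio of the means of 2.79. Only Irf4, with a mean below 1 FPKM, was outside the test. When any single sample was left out, 6 or 7 members rose, the exception being Irf3.

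**Figure D2:**
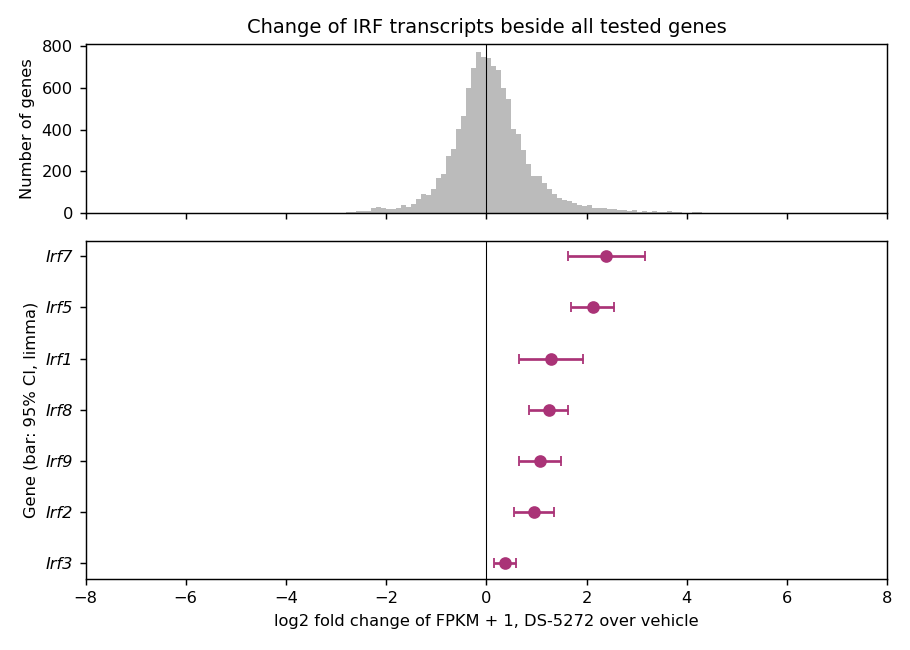
Above, the number of tested genes at each log2 fold change (DS-5272 over vehicle, FPKM + 1); below, the log2 fold change of the 7 tested IRF genes with the 95% confidence interval from limma. All 7 intervals lie above 0, and those of Irf7 and Irf5 lie above 1.

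The changes of the members were unequal. For each pair of tested members, the log2 ratio of the 2 genes, on FPKM + 1, was taken within every sample. This removes most of any scaling of the libraries. All 6 other tested members gained on Irf3 without overlap between the groups, by 0.57 (Irf2) to 2.02 (Irf7) on the log2 scale. Irf5 gained on Irf1, Irf8, Irf9 and Irf2 without overlap, by 0.83 to 1.17. Irf7 gained on Irf8, Irf9 and Irf2 without overlap, by 1.15 to 1.44, and its gain of 1.10 on Irf1 overlapped. The changes of Irf7 and Irf5 differed by 0.27 with overlapping ratios. Among Irf1, Irf8, Irf9 and Irf2, the ratios of each pair overlapped between the groups.

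Irf7, often called the master regulator of type I interferon responses, had the largest change in the family. With vehicle, replicates 1, 2 and 3 had 55.7, 34.0 and 26.5 FPKM, and with DS-5272 they had 278, 147 and 190 FPKM. In the same-numbered samples the treated level was 4.98, 4.32 and 7.18 times the vehicle level. The groups were far apart despite a wide spread within each, and replicate 1 was the highest sample in both. The mean rose from 38.7 ± 15.2 to 205 ± 66.6 FPKM (SD, n = 3), with a log2 fold change of 2.39 (SE 0.32, limma adjusted p = 0.0033), and 151 of the 11130 tested genes rose more. Without DS-5272 replicate 1 the change was 2.15 (limma adjusted p = 0.0073).

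Irf5, which acts downstream of MyD88 in myeloid cells, was at 18.9, 20.7 and 14.3 FPKM with vehicle and at 66.3, 83.8 and 94.2 FPKM with DS-5272. The groups were separated by a factor of 3.20 between the highest vehicle and the lowest treated sample. This was the widest such gap among the 8 members. The mean rose from 18.0 ± 3.31 to 81.4 ± 14.1 FPKM (SD, n = 3), with a log2 fold change of 2.12 (SE 0.18, limma adjusted p = 0.00099). Of the exonic bases of Irf5, 14.1% overlap exons of Tnpo3 on the other strand, and no source used here says whether fragments were assigned by strand. Tnpo3 was lower with DS-5272, at 30.8 to 33.8 FPKM in vehicle and 22.6 to 26.5 FPKM in treated samples.

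Irf3, the broadly expressed factor that responds first to nucleic acid sensing, changed least. It was at 30.2, 28.9 and 29.7 FPKM with vehicle and at 35.8, 38.6 and 41.6 FPKM with DS-5272. The groups did not overlap, but the highest vehicle and the lowest treated sample were a factor of 1.19 apart. The mean went from 29.6 ± 0.663 to 38.7 ± 2.86 FPKM (SD, n = 3), with a log2 fold change of 0.37 (SE 0.09, limma adjusted p = 0.018). The call was lost when FPKM were rescaled to a common total (TPM), where the change was 0.11 (limma adjusted p = 0.41), and without vehicle replicate 1, 2 or 3 (0.39, 0.36 and 0.38, limma adjusted p = 0.051, 0.079 and 0.072). Relative to the median of all tested genes the change was 0.33 as deposited and 0.31 with TPM, which shifts that median to -0.19.

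Irf7 and Irf5 both gained on Irf3 within the libraries. The log2 ratio of Irf7 to Irf3 was 0.31 ± 0.52 (SD, n = 3) in vehicle and 2.33 ± 0.53 in treated samples, and that of Irf5 to Irf3 was -0.71 ± 0.28 and 1.04 ± 0.15. Irf5 was below Irf3 in every vehicle sample and above it in every treated sample, whereas Irf7 was already above Irf3 in vehicle replicates 1 and 2. With 3 samples against 3 an exact two-sided permutation test cannot go below p = 0.1, and both differences, 2.02 and 1.75, reached that value (adjusted p = 0.15 over 6 ratios).

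Irf1, an interferon-gamma-induced activator and tumor suppressor, was at 24.4, 30.7 and 33.5 FPKM with vehicle and at 49.4, 75.6 and 104 FPKM with DS-5272. Replicate 1 was the lowest sample in both groups, and the treated samples spread over a wide range. The mean rose from 29.5 ± 4.66 to 76.3 ± 27.4 FPKM (SD, n = 3), with a log2 fold change of 1.29 (SE 0.27, limma adjusted p = 0.010). The same-numbered ratios were 2.02, 2.46 and 3.11.

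Irf2, its antagonist at many promoters, was nearly constant in the vehicle samples at 23.3, 23.9 and 24.1 FPKM. It reached 39.7, 42.3 and 61.2 FPKM with DS-5272, so that the treated samples stood apart from vehicle and replicate 3 stood above the others. The mean rose from 23.8 ± 0.408 to 47.7 ± 11.7 FPKM (SD, n = 3), with a log2 fold change of 0.95 (SE 0.17, limma adjusted p = 0.0064). Activator and repressor thus rose together. The log2 ratio of Irf1 to Irf2 was 0.29 ± 0.20 in vehicle and 0.63 ± 0.28 in treated samples (SD, n = 3), with overlapping groups (difference 0.34, exact permutation p = 0.3, adjusted p = 0.36 over 6 ratios). In each same-numbered pair it was higher with DS-5272 (0.06 and 0.31, 0.35 and 0.82, 0.46 and 0.76), and with the replicate block the exact permutation p was 0.25, the smallest that 3 pairs allow.

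Irf9, the DNA-binding subunit of ISGF3, was at 34.1, 27.8 and 24.9 FPKM with vehicle and at 60.5, 51.3 and 74.8 FPKM with DS-5272. Its mean rose from 28.9 ± 4.73 to 62.2 ± 11.8 FPKM (SD, n = 3), with a log2 fold change of 1.08 (SE 0.17, limma adjusted p = 0.0052). The treated samples all lay above the vehicle samples, with replicate 2 the lowest of them. Its partner in ISGF3, STAT2, also rose. Stat2 was at 18.6, 17.1 and 14.0 FPKM with vehicle and 56.8, 32.1 and 49.5 FPKM with DS-5272, a log2 fold change of 1.39 (SE 0.22, limma adjusted p = 0.0049). Stat2 was also lowest in replicate 2 among the treated samples.

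Within each library, the log2 ratio of Irf9 to Stat2 went from 0.77 ± 0.09 to 0.45 ± 0.31 on the log2 scale without overlap (exact permutation p = 0.1, adjusted p = 0.15 over 6 ratios). The groups nearly touched, at 0.668 in vehicle replicate 2 and 0.660 in DS-5272 replicate 2. The value of DS-5272 replicate 1, 0.09, lay below the other treated values of 0.66 and 0.59, and without it the difference was -0.14. Irf9 shares 2.28% of its exonic bases with Rnf31 on the same strand.

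Irf8, a determinant of the monocyte lineage whose loss in mice causes a myeloproliferative disease, was the most abundant member in 5 of 6 samples. It was at 113, 95.9 and 74.0 FPKM with vehicle and at 237, 219 and 211 FPKM with DS-5272. The treated samples were close to each other, and replicate 1 was the highest in both groups. The mean rose from 94.5 ± 19.8 to 222 ± 13.3 FPKM (SD, n = 3), with a log2 fold change of 1.24 (SE 0.17, limma adjusted p = 0.0032), and was 1.20 (limma adjusted p = 0.0082) without DS-5272 replicate 1. PU.1, the Ets factor with which IRF8 and IRF4 bind composite elements, is listed under its older symbol Sfpi1. Its mean rose from 254 ± 23.7 to 431 ± 78.0 FPKM (SD, n = 3), with a log2 fold change of 0.75 (SE 0.16, limma adjusted p = 0.011), which was 0.48 with TPM and 0.34 with quantile normalization.

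Irf4, the lymphoid counterpart of Irf8, was close to the limit of detection. It was at 0.289, 0.192 and 0.249 FPKM with vehicle and at 0.678, 0.678 and 0.969 FPKM with DS-5272. The lowest of these values stands for about 30 fragments, estimated from the smallest FPKM steps. The groups did not overlap, and the ratio of the means was 3.19 (exact permutation p = 0.1, the smallest possible). When no filter on low FPKM was applied, the log2 fold change was 0.51 (SE 0.08, limma adjusted p = 0.010 over 18149 genes), a scale that understates changes of low genes. The log2 ratio of Irf4 to Irf8 fell by 0.73 with a pseudocount of 1 and was 0.09 higher with a pseudocount of 0.1, so its direction rests on the pseudocount.

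Marker genes of dendritic and B cells, normal cells with high Irf4, Irf7 or Irf8, were low with few exceptions. In a bulk sample, fewer cells of a type and less RNA per cell cannot be told apart. For plasmacytoid dendritic cells, which carry high Irf7 and Irf8, 0 of 5 markers rose (1 could be tested) and the summed level was 25.5 to 44.0 FPKM in vehicle and 32.1 to 45.0 FPKM in treated samples, nearly all of it Tcf4. Siglech, a defining gene of these cells, was listed at 0 in all vehicle samples and had a mean of 0.0043 FPKM with DS-5272. Markers of conventional dendritic cells summed to at most 0.208 FPKM in vehicle and 0.557 FPKM in treated samples. Of the 8 B and plasma cell markers with an entry, 2 could be tested and 0 rose, and their sum of 4.76 to 6.81 FPKM over all samples was mostly Cd79b and Igj, with Pax5 and Ms4a1 each below 0.1 FPKM. Igj, the immunoglobulin joining chain of plasma cells, was at 0.289, 1.10 and 0.577 FPKM with vehicle and 0.417, 2.76 and 2.72 FPKM with DS-5272 (limma adjusted p = 0.18, and 0.038 with the replicate number as a block).

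Several other marker lists moved with treatment, and their part in the IRF changes was not tested. The counts of markers that rose are to be read against the 24.2% of all tested genes that rose. Neutrophil markers, which maturing leukemia cells can also express, summed to 170, 1091 and 1644 FPKM in vehicle and 2906, 8760 and 13958 FPKM in treated samples, and 4 of 7 rose. Bone marrow macrophage markers summed to 44.5, 68.3 and 92.8 FPKM in vehicle and 377, 109 and 127 FPKM in treated samples. Of the 8 that could be tested, 3 rose (C1qa, C1qb and C1qc). Monocyte markers did not move together, and summed to 1265 to 1305 FPKM in vehicle and 1488, 1174 and 1099 FPKM in treated samples. Of the 4 monocyte markers that could be tested, 2 rose, Csf1r and Ccr2. Ly6c2 (880 and 693 FPKM in vehicle and treated samples) and F13a1 (315 and 262 FPKM) were lower on average. Neither passed the test (limma adjusted p = 0.19 and 0.15), and Cx3cr1 was at 0.16 FPKM in both groups. The sums of the T and NK cell (0.536 to 0.981 against 1.67 to 2.75 FPKM) and megakaryocyte markers (0.747 to 1.26 against 3.04 to 5.86 FPKM) were higher with DS-5272 at low levels. Among the T and NK cell markers, Gzma had the highest means (0.331 and 1.35 FPKM in vehicle and treated samples). Cd3g (0.127 and 0.0936 FPKM) and Klrb1c (0.181 and 0.161 FPKM) were lower on average with DS-5272, and the others were higher. Erythroid markers summed to 1.32 to 1.45 FPKM in vehicle and 1.21 to 6.79 FPKM in treated samples, with Car1 listed at 0 throughout.

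Of the 9 markers of the MLL-AF9 leukemia, 7 had an entry, of which 3 rose and 2 fell. Among all tested genes 24.2% rose and 22.0% fell. Meis1 (75.2 and 90.2 FPKM in vehicle and treated samples) and Myb (210 and 174 FPKM) were present in both groups. Kit fell from 30.5-45.0 to 4.94-12.1 FPKM and Mpo from 228 to 6.40 FPKM, while Itgam rose from 168 to 754 FPKM. Trp53 transcripts fell from 72.9 ± 10.3 to 38.8 ± 7.81 FPKM (SD, n = 3, limma adjusted p = 0.0086). The p53 targets Cdkn1a (14.8, 28.1 and 25.5 FPKM with vehicle, 32.3, 117 and 485 FPKM with DS-5272) and Mdm2 (27.1, 36.3 and 40.0 FPKM with vehicle, 42.6, 78.8 and 210 FPKM with DS-5272) were higher in each treated sample than in each vehicle sample. Their limma adjusted p was 0.061 and 0.073, 0.014 and 0.015 with the replicate number as a block, and 0.011 and 0.017 without DS-5272 replicate 1. Both were lowest in replicate 1 of each group and, with DS-5272, highest in replicate 3, as were Irf1 and Irf2 and unlike Irf7 and Irf8. Of all tested genes, 29.2% were lowest in replicate 1 of both groups.

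The make-up of the IRF pool shifted toward Irf7 and Irf5. The share of Irf7 in the summed IRF FPKM went from 14.4% ± 3.67 to 27.7% ± 7.49 (SD, n = 3) and that of Irf5 from 6.82% (6.28% to 7.91%) to 11.2% (8.65% to 12.7%), each without overlap. Irf3 went from 11.4% ± 1.56 to 5.30% ± 0.598 and Irf9 from 11.0% ± 0.383 to 8.44% ± 1.03, also without overlap. The shares of Irf8 (35.7% and 30.4%), Irf1 (11.5% and 10.4%), Irf2 (9.17% and 6.49%) and Irf4 (0.0929% and 0.105%) overlapped between the groups. Shares are tied to each other, since a larger share of one gene lowers the rest.

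**Figure D3:**
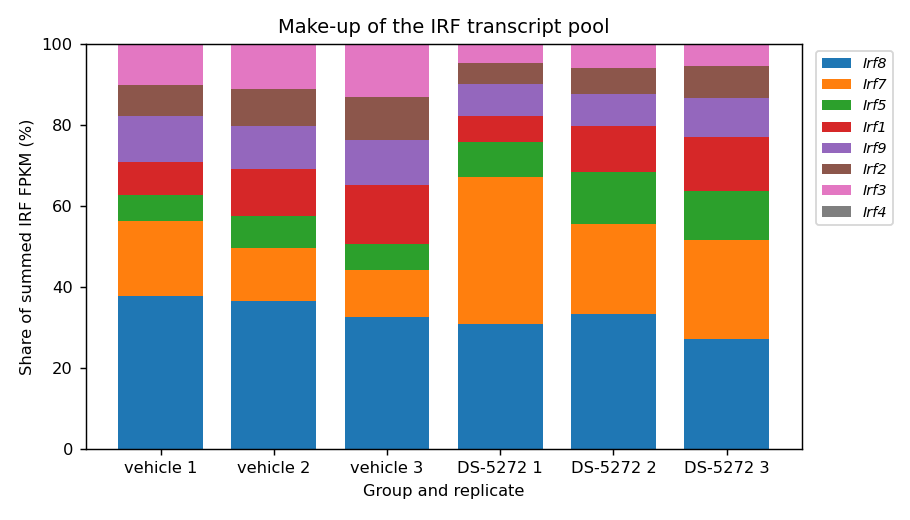
Share of each IRF gene in the summed FPKM of the 8 genes (%), stacked for each of the 6 samples. The Irf7 segment takes 11.6% to 18.6% of the vehicle bars and 22.3% to 36.2% of the DS-5272 bars, and the Irf3 segment takes 4.67% to 5.87% of the DS-5272 bars, less than in each vehicle bar.

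Deviations of single samples from their group mean differed between the members. Irf7 and Irf8 were highest in replicate 1 of both groups, whereas Irf1 and Irf2 were lowest there. On the log2(FPKM + 1) scale, Irf7 deviated by 0.58 and 0.49 in vehicle and DS-5272 replicate 1, and Irf1 by -0.25 and -0.56. Of the 7 tested members, 2 (28.6%) were highest and 2 (28.6%) lowest in replicate 1 of both groups. Among all tested genes these shares were 20.1% and 29.2%, so the member shares were not far from those of the whole table. Among the 15 tested targets of ISGF3, IRF3 and IRF7, 10 were highest in replicate 1 of both groups and 1, Cxcl10, was lowest. Replicate 1 also had the lowest neutrophil marker sum in each group. The macrophage marker sum was highest in DS-5272 replicate 1 (377 FPKM) but, among vehicle samples, lowest in replicate 1 (44.5 FPKM).

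**Figure D4:**
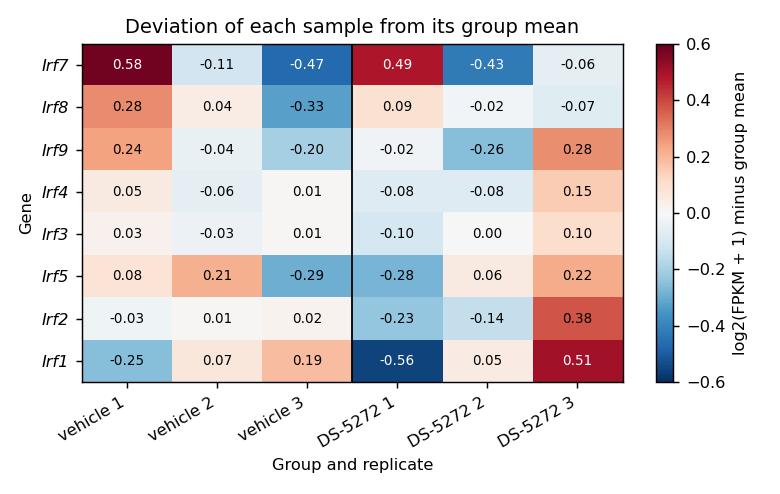
Deviation of log2(FPKM + 1) from the mean of the sample's own group for the 8 IRF genes (rows) in the 6 samples (columns), in colour and as numbers. Replicate 1 is red for Irf7 and Irf8 and blue for Irf1 and Irf2 in both groups.

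The genes around the IRFs were described with 9 lists by role. They hold 108 different genes with an entry, of which 82 could be tested, 55 rose and 0 fell. The counts of these lists are to be read against the 24.2% of all tested genes that rose and the 22.0% that fell. Scaling changed the count of falls, to 4 with TPM, 3 with a common upper quartile and 2 with quantile normalization. Some listed genes, among them Tbk1, Ifit3 and Eif2ak2, had no entry of their own and were not analysed here.

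Upstream of IRF3, IRF5 and IRF7, 9 of 14 tested adaptors and kinases rose and 0 fell, with a median log2 fold change of 0.62. Ikbke, a kinase of IRF3 and IRF7, rose from 42.4 ± 11.3 to 111 ± 43.5 FPKM (SD, n = 3), with a log2 fold change of 1.33 (SE 0.31, limma adjusted p = 0.014). The Toll-like receptor adaptors Ticam1 (TRIF) and Ticam2 (TRAM) had log2 fold changes of 0.79 each (SE 0.11 and 0.21, limma adjusted p = 0.0038 and 0.022). The call of Ticam2 was lost with TPM (0.59, limma adjusted p = 0.066), without a filter (limma adjusted p = 0.050 over 18149 genes) and without vehicle replicate 2 or 3 or DS-5272 replicate 3 (0.68, 0.72 and 0.65, limma adjusted p = 0.082, 0.078 and 0.059).

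Interferon transcripts themselves were at the floor of the table. None of the 17 interferon genes with an entry reached a mean of 1 FPKM. They comprised 11 genes listed at 0 in all 6 samples, and the highest single value was 0.304 FPKM, for Ifng in DS-5272 replicate 3. Ifnb1 was listed at 0 in the vehicle samples and at 0.187, 0.107 and 0.0648 FPKM with DS-5272. Ifng was at 0.0410, 0.0254 and 0.0232 FPKM with vehicle and 0.0824, 0.157 and 0.304 FPKM with DS-5272, so both genes were higher in each treated sample. Without a filter on low FPKM, Ifnb1 was the interferon gene that passed (log2 fold change 0.16, limma adjusted p = 0.032 over 18149 genes), and Ifng had 0.19 (limma adjusted p = 0.081). Of the genes that act on interferon signals, 8 of 10 tested interferon receptor, JAK and STAT genes rose and 0 fell, with a median log2 fold change of 0.75. Besides Stat2, Ifngr2, a chain of the interferon-gamma receptor, rose from 19.8 ± 3.13 to 44.4 ± 8.83 FPKM (SD, n = 3), with a log2 fold change of 1.12 (SE 0.18, limma adjusted p = 0.0047).

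Of the DNA-binding partners and coactivators, 4 of 8 rose and 0 fell, with a median log2 fold change of 0.49. Besides PU.1, these included Batf2, a partner of IRF1, with 2.89 ± 0.894 and 9.37 ± 3.21 FPKM (SD, n = 3; log2 fold change 1.40, SE 0.25, limma adjusted p = 0.0069). The NF-kappaB subunit Rela had a log2 fold change of 0.52 (SE 0.16, limma adjusted p = 0.037), and its call was lost in 7 of 16 alternatives. Among these were TPM (0.25, limma adjusted p = 0.057) and leaving out vehicle replicate 1, 2 or 3 (0.42, 0.56 and 0.56) or DS-5272 replicate 2 or 3 (0.50 and 0.39). The count of 4 became 2 with TPM and without vehicle replicate 1, 2 or 3.

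Of the negative regulators, 9 of 16 rose and 0 fell, with a median log2 fold change of 0.48. With TPM, 5 rose and 3 fell. Socs3, an inhibitor of JAK signalling, rose from 7.75 ± 2.86 to 38.4 ± 6.92 FPKM (SD, n = 3), with a log2 fold change of 2.21 (SE 0.26, limma adjusted p = 0.0024). Usp18, which removes ISG15 from proteins and blocks the type I interferon receptor, rose by 2.12 (SE 0.32, limma adjusted p = 0.0041) and Lyn, a kinase that restrains IRF5, by 1.60 (SE 0.16, limma adjusted p = 0.0016) on the log2 scale.

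Among the target lists, that of ISGF3, IRF3 and IRF7 moved most. Of its 15 tested genes 14 rose and 0 fell, with a median log2 fold change of 1.63. Its largest changes were those of the antiviral genes Mx1, Isg15 and Ifit1. Mx1 was at 5.60, 4.06 and 2.38 FPKM with vehicle and at 34.1, 15.9 and 33.7 FPKM with DS-5272 (limma adjusted p = 0.0037). Isg15 was at 18.5, 10.4 and 9.73 FPKM with vehicle and at 102, 47.3 and 76.9 FPKM with DS-5272 (limma adjusted p = 0.0033), and Ifit1 at 8.98, 3.94 and 3.65 against 46.8, 21.9 and 31.0 FPKM (limma adjusted p = 0.0044). The log2 fold changes of the 3 genes were 2.50, 2.45 and 2.42, and their lowest treated sample was replicate 2, as for Irf7 and Irf9. Cxcl10 was the gene that did not pass (1.07, limma adjusted p = 0.094), and it passed with the replicate number as a block (limma adjusted p = 0.015).

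Of the targets of IRF1, 7 of 8 rose and 0 fell, with a median log2 fold change of 0.77. Gbp2, a guanylate-binding protein, rose by 2.32 (SE 0.33, limma adjusted p = 0.0038), Cd274, which encodes PD-L1, by 1.97 (SE 0.18, limma adjusted p = 0.0012), and Il15, a cytokine for NK cells, by 1.85 (SE 0.22, limma adjusted p = 0.0024) on the log2 scale. Psmb8, a subunit of the immunoproteasome, was at 170 FPKM in vehicle and 174 FPKM in treated samples (limma adjusted p = 0.83, 95% confidence interval of the log2 fold change -0.26 to 0.33).

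Among the lists with tested genes, the targets of IRF5 were the list without any call. Although Irf5 itself had the second largest change in the family, 0 of 3 tested targets rose or fell. Il6, Il10 and Il12b averaged below 1 FPKM over the 6 samples and were not tested. Il6 and Il10 were each higher in all treated than in all vehicle samples. Il12b was at 0.0120, 0 and 0 FPKM with vehicle and 0.0161, 0.0185 and 0.0446 FPKM with DS-5272. Such levels rest on few fragments and also depend on depth, which was estimated to be lower in the treated samples. Il10 was at 0.0377, 0.0467 and 0.207 FPKM with vehicle and 0.404, 1.09 and 3.24 FPKM with DS-5272, and Il6 at 0.0925, 0.2002 and 0.157 against 0.744, 0.461 and 0.214 FPKM. Tnf was at 4.31, 35.6 and 68.7 FPKM with vehicle and at 19.9, 133 and 159 FPKM with DS-5272, so that replicate 1 was low in both groups (log2 fold change 1.68, limma adjusted p = 0.25). Il23a was similarly spread (1.33, limma adjusted p = 0.20). The count was 1 without DS-5272 replicate 1. With the replicate number as a block, Tnf and Il23a passed (limma adjusted p = 0.0015 and 0.028), while Il12a did not (log2 fold change 0.16, limma adjusted p = 0.675 without the block).

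Of the targets of IRF8, 4 of 8 rose and 0 fell, with a median log2 fold change of 0.84. Il18, an inflammasome cytokine, was at 1.10, 0.711 and 0.755 FPKM with vehicle and at 11.2, 8.08 and 11.3 FPKM with DS-5272, a log2 fold change of 2.58 (SE 0.17, limma adjusted p = 0.00061). Cybb, a subunit of the phagocyte NADPH oxidase, rose by 2.32 (SE 0.26, limma adjusted p = 0.0020) on the log2 scale.

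**Figure D5:**
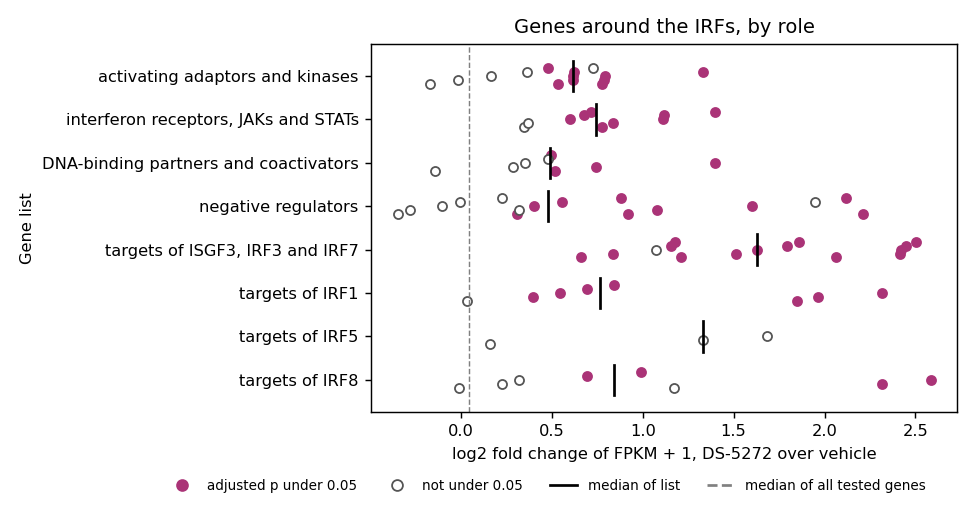
Log2 fold change (DS-5272 over vehicle, FPKM + 1) of the tested genes in 8 lists by role; filled points have an adjusted p below 0.05, black bars are list medians and the dashed line is the median of all tested genes. Filled points lie to the right of the line in 7 lists, and the targets of ISGF3, IRF3 and IRF7 have the highest median, 1.63, while the IRF5 targets have no filled point.

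The genes whose levels followed each member most closely were listed by Pearson r of log2(FPKM + 1) over the 6 samples, among genes averaging 5 FPKM or more. These correlations mostly carry the difference between the groups, since all points share 6 libraries. They are given as a description. Irf7 was followed by Ocel1, Zbp1 and Slfn5, of which Zbp1 is an interferon-induced sensor of Z-form nucleic acids. Irf9 was followed by Rab43, Rap2b and the joined entry of the antiviral synthetase genes Oas1a and Oas1g. Irf1 went with Pstpip1, Rgs19 and Coro1a, Irf2 with Dennd1c, Ssh1 and Arap1, and Irf5 with Tuba1a, 2310035K24Rik and Lsp1. For Irf3 these were Dhrs3, Mtap7d1 and 1500010J02Rik, for Irf8 Gm19562, Slc2a6 and Padi2, and for Irf4 Eps15l1, Rnf114 and Hsbp1. All 24 values were at least 0.992, and 259 genes for Irf8 to 1370 genes for Irf2, of 8568 compared, had an r above 0.95.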

How the data were processed

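RNA-Seq was run on 3 vehicle and 3 DS-5272 samples. Per the labels and the study's methods, strand-specific libraries were sequenced, and the submitters' processing notes name cutadapt 1.8.1, FastQC, TopHat2 2.1.1 and Cufflinks 2.2.1 with GRCm38. The deposited values are FPKM, which the authors computed per gene, and no counts are given. The table has 26632 entries, and 435 names on several lines were summed. The members and lists were chosen with earlier results of these data known. 

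Groups were compared with limma 3.58.1 in R 4.3.3 (two-sided, lmFit and eBayes with trend) on log2(FPKM + 1) for the 11130 genes that averaged 1 FPKM or more, with Benjamini-Hochberg adjustment over these genes and a threshold of 0.05. The script was tested on simulated data. Single values and ratios were compared by exact permutation. Tables and plots were made in Python 3.11.15 with matplotlib 3.10.9, pandas 2.3.3 and numpy 2.4.6. In each list the 3 genes with the largest change past the threshold were named, and for each member the 3 genes with the highest Pearson r. Genes from the marker lists, from the IRF5 target list, Psmb8, Cxcl10, Ifnb1, Ifng and genes sharing exons with members were named after their values were seen. Some genes and 1 of the 6 ratios that the rules select are not reported here.

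Depth is not part of the table. It was estimated from the FPKM steps of genes under 0.15 FPKM, at 34700000 to 42800000 fragments in vehicle and 22900000 to 32400000 in DS-5272 samples, which gives its scale only. FPKM summed to 445316 to 661184 per sample. Deviations from the group means correlated by 0.658, 0.209 and 0.43 between samples numbered 1, 2 and 3 and by -0.576 to 0.335 between others. Vehicle replicate 2 correlated more with DS-5272 replicate 3 (0.335) than with DS-5272 replicate 2 (0.209), so the pairing is uncertain. The main test was unpaired. Same-numbered samples were taken as pairs only in the replicate block and where same-numbered values are compared.

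Besides Irf5 and Irf9, exons of Irf1 (Gm17334), Irf3 (Bcl2l12) and Irf7 (Phrf1) overlap other genes by 1.19% to 3.40% of their bases. The alternatives were another pseudocount, filter, scaling, variance model, library weights or fold threshold, the replicate block, and leaving out each sample.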

Additional observations from a re-analysis of the deposited data

How the results depend on the processing

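Irf1, Irf5, Irf7, Irf8 and Irf9 rose under all 17 alternatives. Irf2 (0.95) and Irf3 (0.37) missed a log2 fold change of at least 1, and Irf3 missed the test with TPM (0.11) and, at 0.32 to 0.43 when 1 sample was left out, without vehicle replicate 1, 2 or 3. Leaving out 1 sample gave log2 fold changes of 1.04 to 1.57 for Irf1, 0.76 to 1.06 for Irf2, 1.97 to 2.26 for Irf5, 2.15 to 2.68 for Irf7, 1.08 to 1.39 for Irf8 and 0.94 to 1.20 for Irf9. Between 6 and 7 members then rose and 0 fell. With the replicate block the limma adjusted p was 0.0018 for Irf1, 0.0037 for Irf2, 0.022 for Irf3, 0.00098 for Irf5, 0.00046 for Irf7, 0.0012 for Irf8 and 0.0043 for Irf9, so the block changed no call among the members. Among the other genes named in the text, it added calls for Cxcl10, Tnf, Il23a, Mdm2, Cdkn1a, Igj and Myb. No entry joined a member with another gene, so adding joined entries gave no separate value.

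Of all tested genes, 2697 rose and 2451 fell, against 1713 and 3555 with TPM, 2233 and 3179 with a common upper quartile, 2418 and 3135 with quantile normalization, and 978 and 621 when a change of 1 or more on the log2 scale was also required. Leaving out 1 sample gave 1623 to 2934 rises and 1389 to 2432 falls, with the lowest counts without vehicle replicate 2, and 1492 falls without vehicle replicate 3. Of the listed pathway genes, 40 to 55 then rose and 0 fell; 3 fell with a common upper quartile, 4 with TPM, 2 with quantile normalization and 1 with the replicate block, and 273 of 288 counts of single lists stayed within 1.5 times their value. The median log2 fold change of all genes was 0.04 as deposited, -0.19 with TPM and -0.08 with a common upper quartile.

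The log2 ratio difference of Irf4 to Irf8 was 0.0912 with a pseudocount of 0.1 (exact permutation p = 0.6), which is near the Irf4 values themselves. The pseudocount of 1 exceeds every Irf4 value (0.969 FPKM at most) and is small beside the Irf8 values (74.0 FPKM at least). Without a pseudocount, the ratios of the means were 3.19 for Irf4 and 2.35 for Irf8. With no counts in the table, no counting intervals could be given, and values under 1 FPKM, as for Irf4 and the interferon genes, rest on few fragments.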
